A study of Mus musculus with 9 samples.

Results

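The amino acid stress response driven by the transcription factor ATF4 was described in mouse aorta through 10 genes named for that response (Atf4, Asns, Trib3, Chac1, Ddit3, Psat1, Phgdh, Slc7a11, Slc3a2 and Slc7a5), of 33293 gene identifiers in the deposited table. RNA of whole aorta was sequenced from 4 libraries of Apoe-knockout mice (Apoe_KO), in which the gene of apolipoprotein E is disrupted, and from 5 libraries of wild-type C57BL/6J mice (WT). All were male, aged 7 to 8 weeks and on normal chow, and the labels name neither a strain nor an allele for the knockout. Nothing in the labels ties a library to 1 animal, so p-values measure the spread between these libraries alone. Genotype was the only contrast. Values are FPKM, reads scaled to exonic length and library depth, so that levels can be set side by side between genes.

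Cells that run short of an amino acid, or whose endoplasmic reticulum is loaded with misfolded protein, phosphorylate the translation factor eIF2. Translation as a whole then slows while that of ATF4 rises, and ATF4 with its partners switches on genes for amino acid synthesis, amino acid uptake and feedback on the response. ATF4 is controlled to a large part at translation, so the level of its transcript is only a portion of its activity. In vessels the response is known from smooth muscle and endothelial cells under metabolic and oxidative stress.

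The libraries followed their labels for the deleted gene, with Apoe at 6.22 ± 0.401 FPKM in Apoe_KO (SD, n = 4) and 563 ± 54.0 FPKM in WT (SD, n = 5). The depth was 17.0 to 19.8 M reads or fragments. Of 5 smooth muscle markers none was called, and their summed level was 4742 to 6007 FPKM in Apoe_KO and 4644 to 5533 FPKM in WT, although Tagln among them was at 6.06 to 10.2 FPKM in all libraries. In the other marker lists, Kdr of the endothelium was lower (log2 fold change -0.58, adjusted p = 0.0184), as 1 of 5 markers. Lyve1 of macrophages was higher (0.81, adjusted p = 0.0196), as 1 of 5. Over all genes tested 3.43% were higher and 3.92% lower. The libraries Apoe_KO 4 and WT 2 stood apart through lymphocyte transcripts, with a summed level of 6 B lymphocyte markers of 395 and 460 FPKM, against 15.2 to 31.9 FPKM in the other Apoe_KO libraries and 24.5 to 39.5 FPKM in the other WT libraries. Apoe_KO 4 and WT 2 were also the highest in the summed level of 5 cell cycle markers, at 11.992 and 16.438 FPKM. The other Apoe_KO libraries were at 1.85 to 2.18 FPKM and the other WT libraries at 1.77 to 2.74 FPKM. Heat shock genes of a list used as a sign of sample handling moved with genotype. Of 7 such genes 6 were higher, against 3.43% of all genes tested. Their summed level was 1228 to 1702 FPKM in Apoe_KO and 458 to 594 FPKM in WT. A second list of that kind, 8 immediate early genes, had 0 higher and 0 lower. Its summed level was 269 to 447 FPKM in Apoe_KO, inside the 185 to 688 FPKM of WT. The part of any of these marker lists in the differences given here was not tested. Values without both Apoe_KO 4 and WT 2, where given, bear on all that sets these libraries apart, lymphocyte and cell cycle transcripts together. They cannot tell these apart, and they do not bear on the heat shock genes.

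The genes of the response moved in both directions. In the test across all genes (limma on log2(FPKM + 1), adjusted p under 0.05, called higher or lower), Chac1 (glutathione breakdown) and Slc7a5 (amino acid uptake) rose and Psat1 (serine synthesis) fell. Of the 10 genes 9 passed the filter on low values, and 2 of these 9 were higher and 1 lower, whereas 3.43% of the 13383 genes tested were higher, 3.92% were lower and 7.35% were called in either direction. The balance of directions over all genes depended on scaling, with 459 higher and 524 lower as deposited, 630 higher (4.71%) and 269 lower (2.01%) with median centring, and 485 higher (3.62%) and 240 lower (1.79%) with quantile normalization. The groups did not overlap for 4 of the 9, with Apoe_KO above WT for Chac1, Slc7a5 and Slc3a2 and below it for Psat1. Over all genes tested 12.4% were so separated, 4.9% with Apoe_KO above and 7.48% with Apoe_KO below. The median log2 fold change of the 9 genes was 0.22, and that of all genes tested was -0.069. The 10 genes were chosen with earlier results of these data known, so these counts are no independent test against all genes. None of the 10 lies on chromosome 7 with Apoe.

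**Figure D1:**
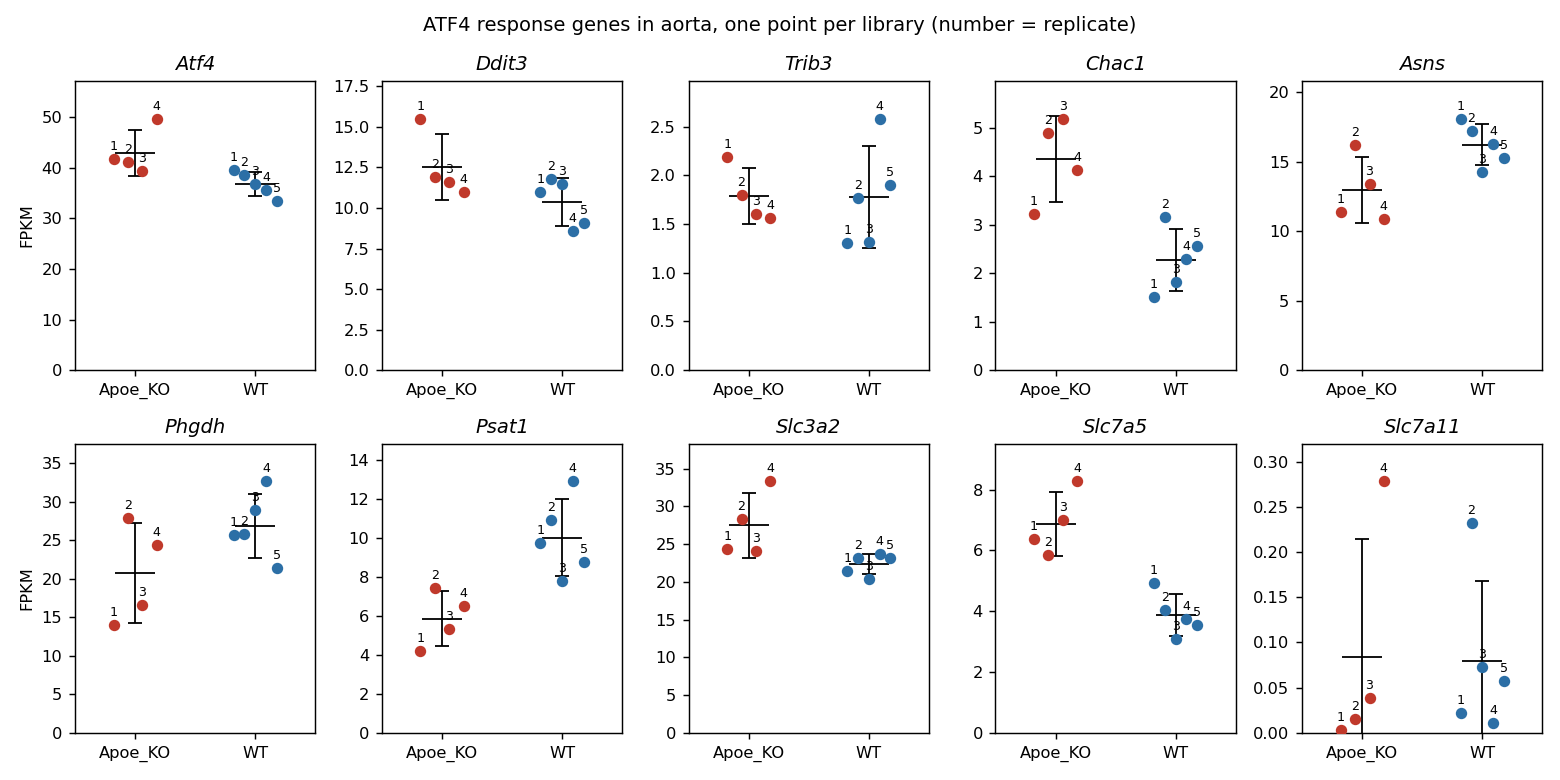
FPKM of each of the 10 genes in every library (points, numbered by replicate), with Apoe_KO left and WT right and the bar at the mean ± SD. All 4 Apoe_KO libraries sat above all 5 WT libraries for Chac1, Slc3a2 and Slc7a5 and below them for Psat1, and Slc7a11 stood out in Apoe_KO 4 and WT 2.

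ATF4 and its partners bind composite DNA elements made of parts of a C/EBP site and an ATF site, and the sequence upstream of the genes was searched for such letters. RefSeq promoter windows (GRCm38.p6) were at hand for 9 of the 10 genes, with a pair of windows for Psat1, and no window for Slc7a5. The 250 bases before each RefSeq start were searched on both strands for TGATGNAA, of which TGATGCAA is a narrower form. It was in 3 of 10 windows, those of Chac1, Asns and Slc7a11, and TGATGCAA in 2 of 10, whereas 3.45% and 0.791% of 32851 windows of all genes held them. The cAMP response element TGACGTCA (1.55% of all windows) and the endoplasmic reticulum stress element (0.113%) were in 0 of the 10. Chac1 and Psat1 are shown as the genes called in opposite directions, and Slc7a11 and Asns as the other 2 with a match. Each runs 5′ to 3′ along the gene, with matches to TGATGNAA on either strand in capitals and bases in annotated exons left off, save for the short stretch of Asns.
Chac1, chr2:119350992-119351228, plus strand: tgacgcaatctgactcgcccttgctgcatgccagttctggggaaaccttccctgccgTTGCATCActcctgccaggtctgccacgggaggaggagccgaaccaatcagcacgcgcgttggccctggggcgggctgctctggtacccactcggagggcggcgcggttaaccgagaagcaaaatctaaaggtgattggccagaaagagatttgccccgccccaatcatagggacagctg
Psat1, chr19:15925060-15925309, minus strand: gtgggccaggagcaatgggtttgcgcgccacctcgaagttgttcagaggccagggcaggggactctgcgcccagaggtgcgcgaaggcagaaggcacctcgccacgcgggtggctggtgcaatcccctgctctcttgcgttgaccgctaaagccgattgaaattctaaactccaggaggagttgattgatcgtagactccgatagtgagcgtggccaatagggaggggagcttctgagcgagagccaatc
Slc7a11, chr3:50443615-50443863, minus strand: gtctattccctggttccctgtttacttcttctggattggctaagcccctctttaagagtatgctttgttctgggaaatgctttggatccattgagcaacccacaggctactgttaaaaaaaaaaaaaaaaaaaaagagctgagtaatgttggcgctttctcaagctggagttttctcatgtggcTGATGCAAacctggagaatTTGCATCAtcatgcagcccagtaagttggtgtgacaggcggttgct
Asns, chr6:7693214-7693243, minus strand: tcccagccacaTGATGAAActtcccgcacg
With -1 as the base before the RefSeq start, the match of Chac1 ran from -193 to -186, those of Slc7a11 from -66 to -59 and from -47 to -40, and that of Asns from -23 to -16, which lies within an exon of Asns in GENCODE release 21. A match is a run of letters and not a measured site, and a window with no match says nothing of sites elsewhere in a gene.

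Atf4 itself (ENSMUSG00000042406, chromosome 15, 80255184 to 80257541, plus strand, GRCm38) was among the higher expressed of the 10. Its level was 41.7, 41.2, 39.4 and 49.7 FPKM in Apoe_KO libraries 1 to 4, against 39.6, 38.6, 36.8, 35.6 and 33.5 FPKM in WT libraries 1 to 5. The highest 3 values were of Apoe_KO, but Apoe_KO 3 lay just under WT 1, so the groups overlapped. Atf4 had a log2 fold change of 0.22 (95% interval 0.035 to 0.40) and did not pass (adjusted p = 0.136; 0.0497 to 0.372 over the alternatives). It was called higher with median centring only (0.0497).

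Of the 10 genes, the regulators downstream of ATF4, Ddit3 and Trib3, did not pass the test. Ddit3 (ENSMUSG00000025408, chromosome 10, 127290774 to 127296288, plus strand), which encodes CHOP, a factor linked to cell death under lasting stress, was at 15.5, 11.9, 11.6 and 11 FPKM in Apoe_KO and at 11, 11.8, 11.5, 8.58 and 9.06 FPKM in WT. Apoe_KO 1 was the highest and the other 3 Apoe_KO libraries lay within or at the edge of the WT range. With a log2 fold change of 0.24 (95% interval -0.028 to 0.51) it did not pass (adjusted p = 0.252). Ddit3 overlaps Mars and Gm4189 on the other strand and a second entry of its own symbol, and since the sources used here do not state whether counting used strand, its value is uncertain to that extent. Trib3 (ENSMUSG00000032715, chromosome 2, 152337422 to 152344032, minus strand), a pseudokinase gene that ATF4 induces and whose product holds ATF4 back, was at 2.19, 1.80, 1.6 and 1.56 FPKM in Apoe_KO and at 1.31, 1.77, 1.32, 2.58 and 1.90 FPKM in WT. The Apoe_KO values all lay inside the WT range. Its log2 fold change was 0.020 (95% interval -0.30 to 0.34, adjusted p = 0.946), on 61 to 91 reads in Apoe_KO and 53 to 105 reads in WT.

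Chac1 (ENSMUSG00000027313, chromosome 2, 119351229 to 119354381, plus strand), a target of ATF4 whose enzyme cleaves glutathione in the cytosol, rose. It was at 3.22, 4.90, 5.19 and 4.13 FPKM in Apoe_KO libraries 1 to 4, against 1.51, 3.16, 1.82, 2.30 and 2.56 FPKM in WT libraries 1 to 5. Every Apoe_KO library was above every WT library, though Apoe_KO 1 exceeded WT 2 only slightly. The means were 4.36 ± 0.881 FPKM in Apoe_KO (SD, n = 4) and 2.27 ± 0.644 FPKM in WT (SD, n = 5), on 103 to 160 reads in Apoe_KO and 49 to 88 reads in WT. The log2 fold change was 0.72 (SE 0.16; adjusted p = 0.0291; 0.016 to 0.178 over the alternatives), above that of 98.9% of genes tested. Without both Apoe_KO 4 and WT 2 it was 0.83 (adjusted p = 0.0474). A two-sided exact permutation test gave p = 0.0159, the smallest it can give with 4 against 5 libraries. The call was lost without Apoe_KO 2 (adjusted p = 0.0547), Apoe_KO 3 (0.0943), Apoe_KO 4 (0.0545), WT 1 (0.0534), WT 3 (0.0558) or WT 4 (0.0646). It was also lost with no filter (0.0788) and with adipocyte markers as a covariate (0.178). The log2 fold change was 0.63 to 0.83 in the fits that left out 1 library.

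Of the amino acid transporters, Slc7a5 (ENSMUSG00000040010, chromosome 8, 121881150 to 121907694, minus strand) rose and kept its call under more alternatives than any other of the 10. It encodes the light chain LAT1, which brings leucine and other large neutral amino acids into cells. It was at 6.37, 5.84, 6.99 and 8.27 FPKM in Apoe_KO and at 4.94, 4.03, 3.09, 3.74 and 3.55 FPKM in WT. The lowest Apoe_KO library was above the highest WT library. The means were 6.87 ± 1.05 FPKM in Apoe_KO (SD, n = 4) and 3.87 ± 0.688 FPKM in WT (SD, n = 5), with a log2 fold change of 0.69 (SE 0.12; adjusted p = 0.0112; 0.00327 to 0.191 over the alternatives). It was called in all 9 fits that left out 1 library (adjusted p = 0.00765 to 0.0392) and without both Apoe_KO 4 and WT 2 (0.63, adjusted p = 0.0481), but not with adipocyte markers as a covariate (0.66, adjusted p = 0.191).

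Slc3a2 (ENSMUSG00000010095, chromosome 19, 8706882 to 8723369, minus strand) encodes the heavy chain that carries LAT1 and the cystine transporter to the membrane. Its level was 24.4, 28.3, 24.1 and 33.3 FPKM in Apoe_KO, against 21.5, 23.1, 20.4, 23.7 and 23.1 FPKM in WT. The groups did not overlap, but Apoe_KO 1 and Apoe_KO 3 were close to WT 4. The log2 fold change of 0.28 (95% interval 0.063 to 0.50) did not pass (adjusted p = 0.111; 0.0482 to 0.24 over the alternatives), and it was called higher with median centring only (0.0482). On the same per-length scale the heavy chain was the more abundant transcript of the pair in every library.

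Slc7a11 (ENSMUSG00000027737, chromosome 3, 49892526 to 50443614, minus strand) encodes the light chain that exchanges cystine for glutamate and feeds glutathione synthesis. Its transcript was close to absent and missed the filter of 1 FPKM in 4 libraries. It had 1, 4, 10 and 71 reads in Apoe_KO libraries 1 to 4, against 6, 55, 19, 3 and 15 reads in WT libraries 1 to 5, which corresponds to 0.00368 to 0.278 FPKM in Apoe_KO and 0.0113 to 0.232 FPKM in WT. The libraries with the most reads were Apoe_KO 4 and WT 2, which also held the most B lymphocyte transcripts. Their summed level of 6 T lymphocyte markers was 35.2 and 43.0 FPKM, against 2.59 to 3.36 FPKM in the other Apoe_KO libraries and 2.36 to 8.72 FPKM in the other WT libraries. No marker of either list was at 0 FPKM in all libraries, and their part in the level of Slc7a11 was not tested. Without Apoe_KO 4 and WT 2 the highest values were 0.0381 FPKM in Apoe_KO and 0.0724 FPKM in WT. In the fit with no filter its log2 fold change was 0.0026 (95% interval -0.19 to 0.19, adjusted p = 0.99), on a scale that with a pseudocount of 1 can hardly move at such levels.

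**Figure D2:**
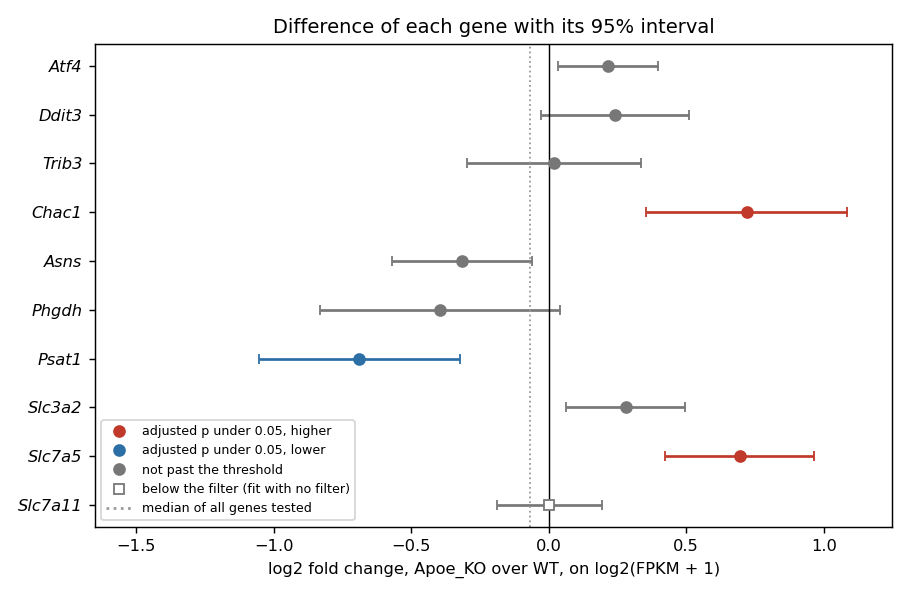
Log2 fold change of each gene, Apoe_KO over WT, on the log2(FPKM + 1) scale, with its 95% interval from limma. Chac1 (0.72) and Slc7a5 (0.69) lie to the right, Psat1 (-0.69) to the left, and the dotted line marks the median of all genes tested (-0.069).

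Of the genes of amino acid synthesis, Psat1 fell and Phgdh and Asns did not pass. Psat1 (ENSMUSG00000024640, chromosome 19, 15904678 to 15947337, minus strand), the aminotransferase of the serine pathway, was at 4.18, 7.43, 5.34 and 6.49 FPKM in Apoe_KO and at 9.74, 10.9, 7.79, 12.9 and 8.75 FPKM in WT. All Apoe_KO libraries were below all WT libraries, with Apoe_KO 2 close to WT 3. The means were 5.86 ± 1.41 FPKM in Apoe_KO (SD, n = 4) and 10.02 ± 1.98 FPKM in WT (SD, n = 5). Psat1 had a log2 fold change of -0.69 (SE 0.16; adjusted p = 0.0350; 0.0139 to 0.587 over the alternatives), and 1.44% of genes tested had a lower one. The exact permutation p was 0.0159, two-sided and the smallest possible. The call was lost without Apoe_KO 1 (adjusted p = 0.0757), Apoe_KO 3 (0.102), Apoe_KO 4 (0.052), WT 1 (0.067), WT 2 (0.0768), WT 4 (0.074) or WT 5 (0.0541). It was also lost without both Apoe_KO 4 and WT 2 (0.0974), with no filter (0.093) and with adipocyte markers as a covariate (0.587).

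Phgdh (ENSMUSG00000053398, chromosome 3, 98313170 to 98339990, minus strand), the dehydrogenase that opens the serine pathway from a glycolytic intermediate, did not pass. It was at 14.0, 27.9, 16.6 and 24.3 FPKM in Apoe_KO, against 25.6, 25.8, 28.9, 32.6 and 21.4 FPKM in WT. Apoe_KO 1 and Apoe_KO 3 were the lowest of the 9, whereas Apoe_KO 2 was above 3 of the 5 WT libraries. For Phgdh the log2 fold change was -0.40 (95% interval -0.83 to 0.039, adjusted p = 0.245). Asns (ENSMUSG00000029752, chromosome 6, 7675169 to 7693254, minus strand), asparagine synthetase and a classical target of ATF4, was at 11.4, 16.2, 13.4 and 10.9 FPKM in Apoe_KO and at 18.1, 17.2, 14.3, 16.3 and 15.3 FPKM in WT. Apoe_KO 2 was inside the WT range and the other 3 Apoe_KO libraries were below all of WT. The log2 fold change was -0.32 (95% interval -0.57 to -0.062) and did not pass (adjusted p = 0.121; 0.0271 to 0.615 over the alternatives), but Asns was called lower without Apoe_KO 2 (-0.42, adjusted p = 0.0271).

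**Figure D3:**
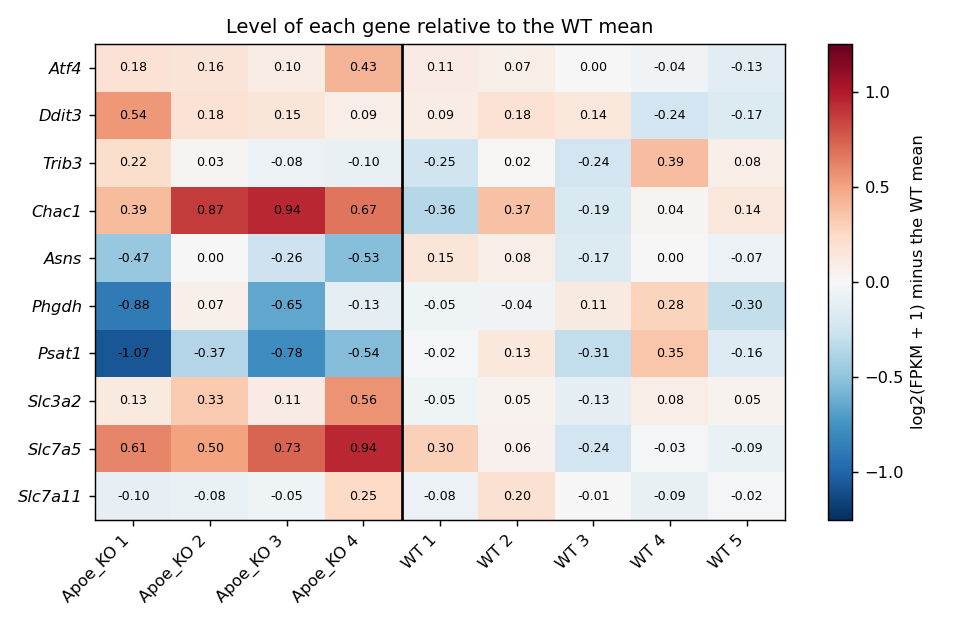
Log2(FPKM + 1) of each gene in each library minus the mean of the WT libraries, with Apoe_KO left of the line and WT right of it, red above the WT mean and blue below it. Psat1 is lowest in Apoe_KO 1 (-1.07) and Apoe_KO 3 (-0.78), as is Phgdh (-0.88 and -0.65), while Slc7a5 is highest in Apoe_KO 4 (0.94) and Chac1 in Apoe_KO 3 (0.94).

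Adipocyte transcripts were present in all libraries and varied between them. Of 5 adipocyte markers 2 were called lower in Apoe_KO (Plin1 and Lep), against 3.92% of all genes tested. None of these markers was at 0 FPKM in all libraries. Their summed level was 647, 1189, 720 and 938 FPKM in Apoe_KO libraries 1 to 4, against 950, 1074, 1242, 1460 and 1038 FPKM in WT libraries 1 to 5. Apoe_KO 1 and Apoe_KO 3 were the lowest of the 9 in this sum, in Phgdh and in Psat1, and WT 4 was the highest in all 3. These ranks were compared after the data were seen. The summed level of 5 brown adipocyte markers, of which 0 were called, did not share them. It was 417, 804, 316 and 366 FPKM in Apoe_KO libraries 1 to 4. In WT libraries 1 to 5 it was 371, 439, 798, 490 and 576 FPKM. The part of adipocyte transcripts in the values of Phgdh and Psat1 was not tested, beyond the covariate fit given next. In whole tissue, fewer cells of a type and less RNA per cell cannot be told apart.

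A fit with the mean of these markers as a covariate, added after the data were seen, called none of the 9 genes. Plin1 and Lep of these markers were called lower in Apoe_KO, so the covariate follows genotype in part and the fit cannot fully separate them. The log2 fold change of Phgdh changed sign, from -0.40 to 0.32 (SE 0.085, adjusted p = 0.151). That of Psat1 went from -0.69 to -0.20 (SE 0.17, 0.587) and that of Asns from -0.32 to -0.20 (SE 0.18, 0.615). Chac1 was at 0.89 (SE 0.26, 0.178), Slc7a5 at 0.66 (SE 0.20, 0.191), Slc3a2 at 0.49 (SE 0.13, 0.153) and Ddit3 at 0.028 (SE 0.18, 0.95). Over all genes the covariate left 18 higher and 11 lower calls, with a median SE of 0.160 in place of 0.106.

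**Figure D4:**
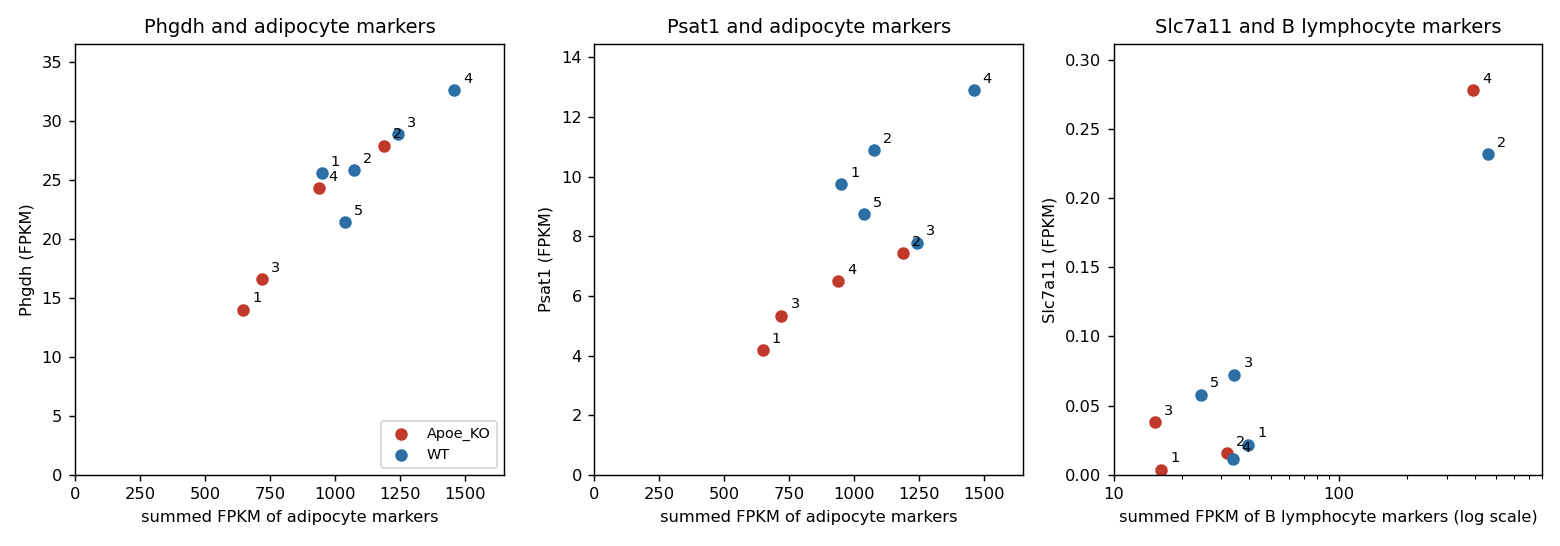
FPKM of Phgdh and Psat1 against the summed FPKM of 5 adipocyte markers, and of Slc7a11 against the summed FPKM of 6 B lymphocyte markers on a log axis, 1 point per library, Apoe_KO red and WT blue, numbered by replicate. Phgdh is lowest where the adipocyte sum is lowest (Apoe_KO 1, 14.0 FPKM) and highest where it is highest (WT 4, 32.6 FPKM), and Slc7a11 is highest in Apoe_KO 4 and WT 2.

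Around these genes stood 8 lists of related genes (123 genes, of which 114 were tested). They had 13 higher (11.4%) and 9 lower (7.89%), against 3.43% and 3.92% of all genes tested. The lists were chosen with earlier results of these data known. Their counts, here and below, are therefore no independent test against all genes. Of the 9 lower, Bbc3 and Cth passed the filter only through the WT libraries, where they were higher, so their calls support nothing on the lists. Without both Apoe_KO 4 and WT 2, 3 were higher (Ddit4, Herpud1 and Hspa5) and 3 lower (Bbc3, Aldh1l1 and Slc1a5). Bbc3 again entered through WT alone, so its call again supports nothing on the lists. In that fit 1.56% of all genes were higher and 1.34% lower. The other arms of the unfolded protein response, which act beside ATF4, had 6 of 20 genes higher, against 3.43% of all genes tested. In this list 0 were lower, against 3.92%, and the median log2 fold change was 0.16 (all genes -0.069). An unadjusted p under 0.05 was seen for 9 of the 20, but the share of all genes under it was not counted. The 6 were the chaperone genes Hspa5, Dnajb9 and Dnajc3, Herpud1 of endoplasmic reticulum protein degradation, Manf and Creld2, with log2 fold changes of 0.31 to 0.64. Herpud1, Hspa5 and Dnajb9 were called in all 9 fits that left out 1 library. Manf, Dnajc3 and Creld2 were each called in 3 of the 9, with adjusted p up to 0.065, 0.0891 and 0.0951. Manf and Dnajc3 were lost without Apoe_KO 1, Apoe_KO 3, Apoe_KO 4, WT 1, WT 4 or WT 5, and Creld2 without Apoe_KO 1, Apoe_KO 4, WT 1, WT 3, WT 4 or WT 5. Manf overlaps Rbm15b and genes of the other strand, and Dnajb9 overlaps Mir5627. The heat shock genes in sum were also higher in Apoe_KO, at 1228 to 1702 FPKM against 458 to 594 FPKM in WT. Their part in the values of these chaperone genes was not tested.

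Upstream of ATF4, of 15 genes of stress sensors and eIF2 control 2 were lower (13.3%, against 3.92% of all genes tested) and 0 higher (against 3.43%). In so short a list the 13.3% called is near the 7.35% of all genes tested. The median of -0.064 was close to the -0.069 of all genes. Eif2ak2, the kinase PKR that double-stranded RNA activates and interferon induces, was at 5.0, 5.89, 4.11 and 4.83 FPKM in Apoe_KO and at 9.20, 9.42, 6.16, 6.98 and 6.93 FPKM in WT, which did not overlap (log2 fold change -0.54, adjusted p = 0.0372). It was called in 2 of 9 fits that left out 1 library (adjusted p up to 0.109) and lost without Apoe_KO 1, Apoe_KO 3, Apoe_KO 4, WT 1, WT 2, WT 4 or WT 5, and it overlaps Gm26637 and n-R5s29 on the other strand. Nck1, whose adaptor protein binds eIF2 and the phosphatase that acts on it, averaged 8.30 ± 0.654 FPKM in Apoe_KO (SD, n = 4) and 10.7 ± 0.581 FPKM in WT (SD, n = 5; -0.33, adjusted p = 0.0216), and lost its call without Apoe_KO 3 or WT 4 (up to 0.0556). The kinase genes of amino acid shortage (Eif2ak4, -0.16), endoplasmic reticulum stress (Eif2ak3, 0.23) and haem shortage (Eif2ak1, -0.081) did not pass, with adjusted p of 0.269, 0.224 and 0.423, and were picked out after their values were seen.

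Among 13 tested partners and feedback factors of ATF4, 4 were higher (30.8%, against 3.43% of all genes tested) and 2 lower (15.4%, against 3.92%), with a median of 0.036. The 2 lower include Bbc3, which passed the filter only through WT, so the 15.4% supports nothing on the list. Ddit4, whose product REDD1 restrains the growth kinase mTORC1, rose, with 69.8, 78.0, 105 and 118 FPKM in Apoe_KO against 25.9, 35.8, 35.2, 38.8 and 49.4 FPKM in WT. The groups were far apart, with a log2 fold change of 1.3 (SE 0.20, adjusted p = 0.00617), and it was called in all 9 fits that left out 1 library. Cebpd, a C/EBP factor gene, was at 19.4, 25.5, 28.6 and 33.0 FPKM in Apoe_KO and at 9.02, 11, 9.92, 12.9 and 18 FPKM in WT (log2 fold change 1.08, adjusted p = 0.0145; 0.0522 without Apoe_KO 3). Stc2, a secreted glycoprotein gene of the unfolded protein response, averaged 3.45 ± 0.598 FPKM in Apoe_KO (n = 4) and 2.04 ± 0.251 FPKM in WT (n = 5; log2 fold change 0.55, adjusted p = 0.0182; 0.0591 without Apoe_KO 3). Jdp2, a repressor of the AP-1 family, had a log2 fold change of 0.43 (adjusted p = 0.0246) and lost its call without Apoe_KO 1, Apoe_KO 3, WT 1, WT 2 or WT 5 (up to 0.0675). Cebpd overlaps Spidr and Jdp2 overlaps Gm47863 on the other strand.

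Both lower factors lie on the chromosome of Apoe. Bbc3, whose product PUMA promotes apoptosis, lies 3.38 Mb from Apoe, and was at 0.844, 0.761, 0.775 and 1.82 FPKM in Apoe_KO against 2.91, 2.60, 2.20, 3.89 and 1.85 FPKM in WT. As only 1 Apoe_KO library reached 1 FPKM, the filter let it in through WT, and its log2 fold change of -0.85 (adjusted p = 0.0261) was not called with no filter (0.0708). Apoe_KO 4 came close to WT 5, and the call was lost without Apoe_KO 1, Apoe_KO 3, WT 1, WT 2 or WT 4 (up to 0.0845). Cebpg, the C/EBP partner of ATF4 at amino acid response elements, lies 15.3 Mb from Apoe and averaged 11.4 ± 1.04 FPKM in Apoe_KO (SD, n = 4) and 14.9 ± 1.55 FPKM in WT (SD, n = 5; -0.36, adjusted p = 0.0371). It lost its call without Apoe_KO 3, Apoe_KO 4, WT 1, WT 2, WT 3 or WT 4 (up to 0.111), and it overlaps Gm44836 and Gm45095. Whether DNA beside the targeted allele has a part in these differences was not tested.

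One-carbon genes, which take up serine made by Phgdh, Psat1 and Psph, were split. Of 9 tested, Mthfd2 was higher and Aldh1l1 and Mthfd1 lower, 33.3% called against 7.35% of all genes tested, and the median of -0.060 was close to the -0.069 of all genes. Mthfd2, the mitochondrial enzyme of the folate cycle and a known target of ATF4, was at 6.11, 5.86, 6.62 and 8.30 FPKM in Apoe_KO and at 4.25, 5.36, 2.76, 4.44 and 3.39 FPKM in WT (log2 fold change 0.63, adjusted p = 0.0387). The groups did not overlap, but the call was lost without Apoe_KO 1, Apoe_KO 3, Apoe_KO 4, WT 1, WT 3, WT 4 or WT 5 (up to 0.099). Aldh1l1, the cytosolic dehydrogenase that burns one-carbon units, was at 10.4, 15.6, 11.2 and 15.6 FPKM in Apoe_KO and at 20.1, 19.1, 23.4, 26.6 and 21.5 FPKM in WT (-0.72, adjusted p = 0.0166; 0.0581 without Apoe_KO 3). Apoe_KO 1 and Apoe_KO 3 were its lowest libraries too. Mthfd1, the cytosolic enzyme, averaged 6.11 ± 0.132 FPKM in Apoe_KO (SD, n = 4) and 7.71 ± 0.464 FPKM in WT (SD, n = 5; -0.29, adjusted p = 0.0227), and lost its call without Apoe_KO 1, Apoe_KO 3, WT 2, WT 4 or WT 5 (up to 0.073). Aldh1l1 and Mthfd1 overlap antisense genes.

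In other amino acid synthesis 1 of 13 was higher (7.69%, against 3.43% of all genes tested) and 2 lower (15.4%, against 3.92%), with a median of -0.18. The 2 lower include Cth, which passed the filter only through WT, so the 15.4% supports nothing on the list. Cth, whose enzyme makes cysteine from cystathionine, was at 0.826, 1.00, 0.913 and 0.781 FPKM in Apoe_KO against 1.63, 1.98, 1.62, 2.42 and 1.66 FPKM in WT. The highest Apoe_KO library was below the lowest WT library. As only 1 Apoe_KO library reached 1 FPKM, the filter let Cth in through WT, so the adjusted p of 0.0116 comes after a filter that its difference helped it pass. With no filter the log2 fold change was -0.60 (adjusted p = 0.0292). Gpt, an alanine aminotransferase gene, averaged 8.50 ± 2.0 FPKM in Apoe_KO (SD, n = 4) and 13.5 ± 2.54 FPKM in WT (SD, n = 5; -0.62, adjusted p = 0.0474), and was called in 1 of the 9, that without Apoe_KO 2 (adjusted p up to 0.128 in the others). Oat, the ornithine aminotransferase gene on chromosome 7 and 113 Mb from Apoe, rose to 173 ± 11.3 FPKM in Apoe_KO (SD, n = 4), against 135 ± 7.03 FPKM in WT (SD, n = 5; 0.35, adjusted p = 0.0196), and was lost without Apoe_KO 3 or WT 4 (up to 0.0654).

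Among 16 other amino acid transporters 1 was higher and 1 lower, 12.5% called, which in so short a list is near the 7.35% of all genes tested (median -0.026). Slc7a6, a light chain that also joins the heavy chain of Slc3a2 and exchanges cationic for neutral amino acids, was at 14.4, 11.9, 13.7 and 14.2 FPKM in Apoe_KO and at 8.88, 11.6, 9.76, 10.9 and 9.59 FPKM in WT (log2 fold change 0.39, adjusted p = 0.0286). Apoe_KO 2 was only just above WT 2, and the call was lost without Apoe_KO 1, Apoe_KO 3, Apoe_KO 4, WT 1, WT 3 or WT 5 (up to 0.0845). Slc1a5, the glutamine transporter gene, lies 2.9 Mb from Apoe on chromosome 7 and fell to 80.7, 95.7, 80.1 and 87.0 FPKM in Apoe_KO, against 155, 184, 211, 248 and 189 FPKM in WT. The groups were far apart, with a log2 fold change of -1.18 (SE 0.13, adjusted p = 0.00136), and the call held in all 9 fits that left out 1 library. No member of the aminoacyl-tRNA synthetases (20 tested, median -0.015) or of glutathione synthesis and turnover (8 tested, median -0.14) passed in limma, and none passed in voom. An unadjusted p under 0.05 in limma was seen for 3 and 2 of them. The share of all genes under that unadjusted p was not counted, so these numbers say nothing on the lists. The smallest p were those of Cars (0.27, adjusted p = 0.0658; 0.0289 without Apoe_KO 2, 0.0192 with median centring, 0.018 with quantile normalization and 0.0256 with library weights), which lies 124 Mb from Apoe and overlaps Gm15580, and Lars (-0.18, 0.145), and of Chac2, the paralogue of Chac1 (-0.49, 0.119), and Gss (-0.25, 0.189).

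**Figure D5:**
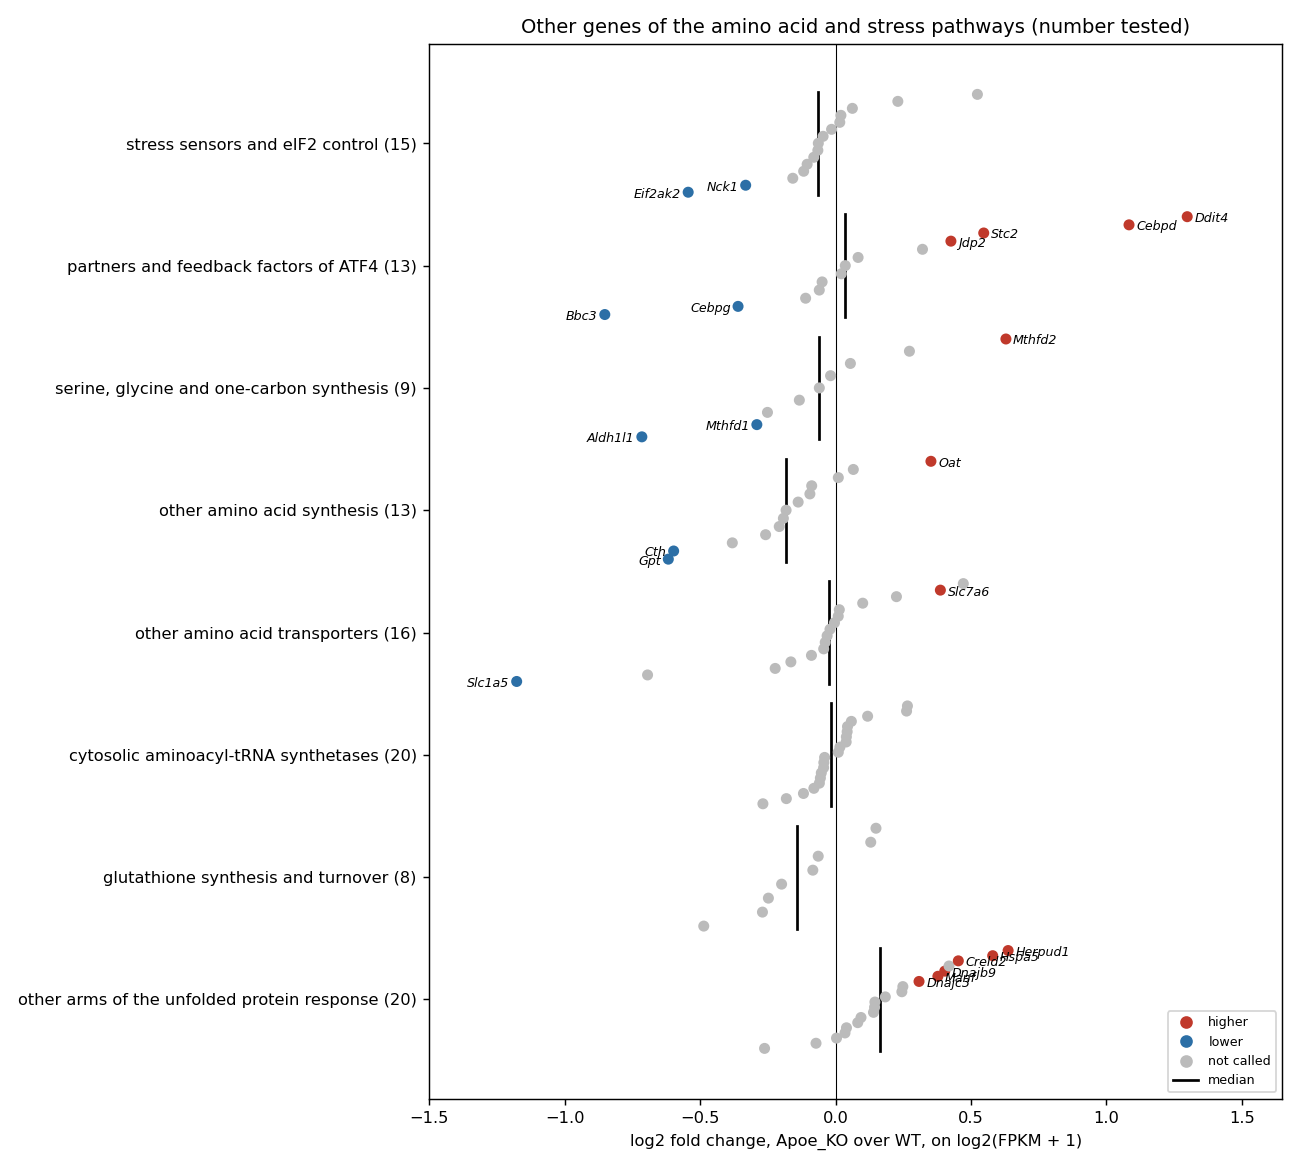
Log2 fold change, Apoe_KO over WT, of each tested gene of the 8 related lists, red where called higher, blue where called lower and grey where not called, with the median of each list as a bar. Ddit4 (1.3) and Cebpd (1.08) lie farthest right and Slc1a5 (-1.18) farthest left, and the tRNA synthetases all lie between -0.27 and 0.27.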

How the data were processed

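The authors deposited 1 table with 33293 identifiers in rows, 9 libraries in columns and a header that names no unit. The deposited values were read as FPKM: multiplied by exonic length (GENCODE mouse release 21) they gave whole reads, within 0.1 read, for 97.6% to 97.9% of values worth up to 50 reads, where chance gives 20%. The submitters' processing notes name GRCm38 and limma. No aligner, counter or strand setting is given in the sources used here. PolyA RNA is what the labels name, and also a kit that removes ribosomal RNA. From these values, log2(FPKM + 1) was fitted with limma 3.58.1 (R 4.3.3, trend and robust) on genotype over 9 libraries. A gene entered with 1 FPKM or more in 4 or more libraries, which 13383 did, and p-values were adjusted over these by Benjamini-Hochberg (threshold 0.05). The scale understates changes of low genes. Exact permutation tests ran over all splits of 4 against 5 libraries. Named were the 10 genes and, from each related list, the called genes by smallest p (at most 6), or the 2 of smallest p where none was called. The 10 genes and the lists were chosen with earlier results of these data known. The fit was also run on simulated data with a common setting of spread for all genes and no difference in cell content. That run is not used as support for any result here. Alternatives were voom on reads recovered from FPKM, library weights, quantile normalization, median centring, other filters (none, 10 FPKM), a pseudocount of 0.1, a replicate block, each library left out, and Apoe_KO 4 and WT 2 left out together. An adipocyte covariate was added after the data were seen.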

Additional observations from a re-analysis of the deposited data

Results flagged for a closer look

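In 4 of 72 sets of libraries (10 genes and 26 related genes, each in both genotypes) 1 library lay far from the rest of its group, 5.56% where chance gives about 5%. Slc7a11 was at 0.278 FPKM in Apoe_KO 4, against 0.00368 to 0.0381 FPKM in the other Apoe_KO libraries, and at 0.232 FPKM in WT 2, against 0.0113 to 0.0724 FPKM in the other WT libraries. Nck1 was at 7.32 FPKM in Apoe_KO 2, against 8.54 to 8.67 FPKM in the others of that genotype. Bbc3 was at 1.82 FPKM in Apoe_KO 4, against 0.761 to 0.844 FPKM in the other Apoe_KO libraries.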

How the results depend on the processing

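No direction of a called gene turned among the 9 tested genes and 26 related genes under the alternatives run, but calls were often lost, in 170 of 466 pairs of a called gene and an alternative, and 7 were gained in 186 pairs of a gene not called. Of the 10 genes, 2 higher and 1 lower became 4 higher with median centring and 1 higher and 0 lower with no filter. The counts were 0 and 0 with the adipocyte covariate, and 0 lower without both Apoe_KO 4 and WT 2. A filter of 10 FPKM also gave 0 and 0, but it kept only 5 of the 10. It removed Chac1, Slc7a5 and Psat1, so their calls were not put to a test there. Leaving out 1 library gave 1 to 2 higher and 0 to 2 lower. In the related lists, 13 higher and 9 lower became 3 and 3 without both libraries, 7 and 3 with no filter, 0 and 0 with the covariate and 5 lower with median centring, and 5 to 15 higher and 2 to 10 lower with 1 library left out. The cause of these changes was not tested, beyond fewer samples or genes tested in some. Same-numbered libraries did not deviate together (correlations across genes of 0.259, -0.267, -0.129 and -0.218), and not every Apoe_KO library correlated best with its own number, so they share only a number. With the replicate block the counts were 0 higher and 0 lower of the 10 genes and 4 higher and 2 lower in the lists. Of the higher, 1 was Ppp1r15a of the stress sensors. Slc7a5, Chac1 and Psat1 lost their calls with the block (adjusted p = 0.108, 0.0672 and 0.0655). WT 5 has no Apoe_KO library of its number, so the block leaves it without weight in the difference. Slc7a11 missed every filter, so it has a value from the fit with no filter alone. Depth limits Trib3, Chac1 and Slc7a11 most.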
